A study of Homo sapiens with 9 samples.

Results

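The NKX2-1 binding sites of 2 lung adenocarcinoma cell lines, NCI-H3122 and NCI-H2087, were compared. The comparison used every NKX2-1 peak of the 2 H3122 lists, called replicate 1 and replicate 2 here, and of the single H2087 list, 69981 of the 125904 peaks in the 5 deposited peak lists of the series. Replicate 1 held 7469 peaks, replicate 2 held 48071 and H2087 held 14441. Both lines carry an amplification of the NKX2-1 gene per the labels, were untreated as far as the labels say, were grown in RPMI1640 with serum, and were fixed with formaldehyde before sonication. NKX2-1 was precipitated with the same Bethyl Laboratories antibody, BL4000, in all 3 libraries. The NKX2-1 list of a further amplified line, NCI-H1819, and an H3122 list of the factor FOXA1 were used only as separate readouts. H2087 had 1 library and nothing in the labels says that the H3122 lists came from separate cultures, so no test over samples was possible. The 95% Wilson intervals given here cover counting error only. The H3122 lists were not cut at the same peak score, with lowest scores of 50 in replicate 1 and 60 in replicate 2. Their difference, which may thus be technical, is given as the scale of variation between lists of 1 line.

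NKX2-1 is a homeodomain transcription factor that directs lung and thyroid development and is kept on in the alveolar type II and club cells of the adult lung, where it activates surfactant and secretoglobin genes. Some lung adenocarcinomas amplify its gene, which in them has been described as a lineage-survival oncogene and in other settings as a restraint on progression. FOXA1 is a forkhead pioneer factor that opens chromatin in the same endodermal lineages and is often found next to NKX2-1 on DNA.

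Most H2087 peaks lay on an H3122 peak, while most H3122 peaks had no H2087 counterpart. A peak was taken as shared if it had 1 bp or more in common with a peak of the other line, and only peaks placed on assembled chromosomes were used (14437 in H2087, 48061 in replicate 2 and 7469 in replicate 1). Of the H2087 peaks, 9834 or 68.1% (67.4 to 68.9) were in either H3122 list, 9773 (67.7%) in replicate 2 and 2183 (15.1%) in replicate 1. Those in both H3122 lists numbered 2122 (14.7%), those in replicate 2 only 7651 (53.0%), and those in replicate 1 only 61 (0.423%). No H3122 list held the other 4603 (31.9%). In the opposite direction, 9618 replicate 2 peaks (20.01%, 19.7 to 20.4) and 2232 replicate 1 peaks (29.9%, 28.9 to 30.9) lay on an H2087 peak. An H2087 peak with an H3122 partner nearly always had a single one: 9501 H2087 peaks met 1 replicate 2 peak, 272 met more, and none met over 3.

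The H3122 peaks found in both of its lists were the ones H2087 held most often. Among replicate 2 peaks, 36.0% of those also in replicate 1 were in H2087, against 17.7% of those not in replicate 1. Among replicate 1 peaks, 35.5% of those also in replicate 2 were in H2087, against 4.69% (3.69 to 5.94) of the 1366 that replicate 2 lacked. The lists differ in length, which sets how many peaks can overlap, so the 7469 best-scoring peaks of each were also compared. At that equal length, 28.6% of H2087 peaks were in replicate 2 and 21.8% in replicate 1, while 46.3% of replicate 1 peaks were in replicate 2. The lines thus shared fewer of their strongest peaks than the H3122 lists shared with each other.

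Sharing was more frequent at stronger and at wider peaks in every list. Each peak carries the authors' own score, read here as 10 times the negative log10 of its p-value, which stops rising near 3100, and each list was divided into quintiles, 5 groups of equal size. From the lowest to the highest quintile of the H2087 scores, the share found in either H3122 list was 50.1%, 60.4%, 67.9%, 77.1% and 85.0%. For replicate 2 peaks found in H2087 the same quintiles gave 9.27%, 13.4%, 18.7%, 25.1% and 33.6%. Replicate 1 gave 24.6%, 24.0%, 27.2%, 32.13% and 41.6%, so its lowest pair of quintiles differed by less than their counting intervals. As deposited, the strongest peaks of H2087 were thus mostly shared and those of H3122 mostly were not. Replicate 2 is much the longer list, so an H2087 peak meets a partner more easily than the reverse. With the 7469 best-scoring peaks of each list, 28.6% of H2087 peaks were in replicate 2 and 28.5% of replicate 2 peaks in H2087. The contrasts that follow use the lists as deposited too. Of 797 H2087 peaks that scored 1000 or more, 703 (88.2%, 85.8 to 90.3) had an H3122 peak and 94 had none. Of 1569 such replicate 2 peaks, 613 (39.1%, 36.7 to 41.5) had an H2087 peak and 956 had none. Among the peaks at 3100 or above, 69 of 73 in H2087 were shared, against 47 of 95 in replicate 2.

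**Figure D1:**
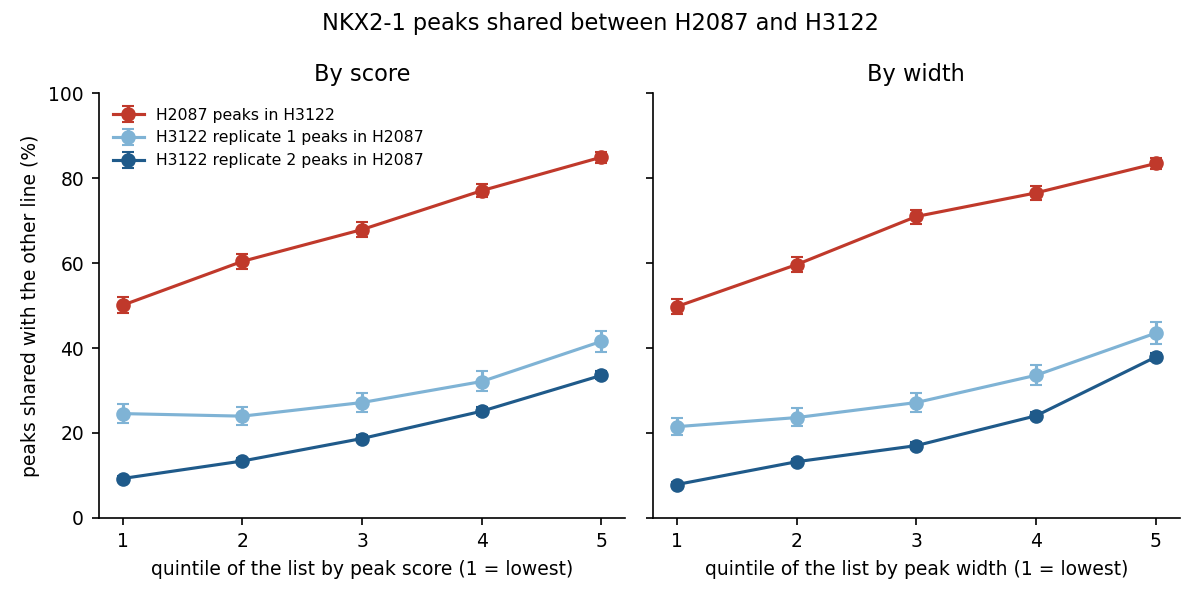
Share of NKX2-1 peaks found in the other line (%, vertical) by quintile of the list ranked by peak score (left) or width (right), with 95% Wilson intervals; red is H2087 peaks in either H3122 list, light and dark blue are H3122 replicates 1 and 2 in H2087. The red line runs from 50.1% to 85.0% by score, and the dark blue line from 9.27% to 33.6%.

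Width showed the same gradient, and in replicate 2 it did so within quintiles of score too. The median width was 592 bp in H2087, 656 bp in replicate 2 and 314 bp in replicate 1. H2087 peaks in both H3122 lists had a median width of 834 bp, those in replicate 2 only 621 bp, and those in neither 471 bp. Replicate 2 peaks had a median width of 788 bp where H2087 had a peak and 629 bp where it had none, and replicate 1 peaks 347 and 303 bp. By quintiles of width, the shared share of H2087 peaks went from 49.8% to 83.5% and that of replicate 2 peaks from 7.85% to 37.9%. A wide peak can meet another more easily. Where only peaks whose midpoint lay inside a peak of the other line were counted, the widest quintile still held 78.3% shared H2087 peaks against 46.95% in the narrowest, and replicate 2 gave 32.4% against 7.40%. Width and score moved together closely in H2087 (Spearman's rho 0.90 across its peaks, given as a description) and less so in replicate 2 (0.54) and replicate 1 (0.46). Within the lowest quintile of replicate 2 scores, the narrowest quintile of peaks was in H2087 in 4.42% of cases and the widest in 18.3%. Within the highest quintile of scores these shares were 24.96% and 48.3%. Score was not fully level: the narrowest and widest groups had median scores of 67.3 and 69.8 in the lowest quintile and 463 and 618 in the highest. Within quintiles of score the 1 bp rule was used, and the midpoint rule was not applied. In H2087 the corresponding gaps in the shared share were smaller, 41.7% against 56.7% at the lowest scores and 82.4% against 88.4% at the highest. There the median score rose from 488 to 1325 between the narrowest and widest groups at the highest scores. Peaks of 2000 bp or more were shared in 126 of 145 cases in H2087 and in 117 of 207 in replicate 2.

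Shared peaks coincided closely in position and loosely in rank. In 8717 pairs, 1 H2087 peak and 1 replicate 2 peak met only each other. Their midpoints were a median of 82 bp apart, and 58.0% were within 100 bp. Between the H3122 lists, 5864 such pairs had a median midpoint distance of 75 bp, so position differed between lines by little more than within H3122. H2087 peaks were narrower than their replicate 2 partners, with median widths of 671 and 786 bp and a median log2 width ratio of -0.22. Against replicate 1 they were wider, with 814 and 347 bp and a ratio of 1.17 in 2103 pairs. Replicate 1 against replicate 2 gave -1.28, so the direction depended on the H3122 list. The rank correlation of the scores within pairs was 0.39 for H2087 and replicate 2, 0.43 for the H3122 lists and 0.24 for H2087 and replicate 1. These correlations are across peaks, which are not independent replicates.

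Joining overlapping peaks of the 3 lists gave 53750 regions. Of these, 2141 held peaks of all 3 lists, 7201 of H2087 and replicate 2, 61 of H2087 and replicate 1, and 4603 of H2087 alone. Both H3122 lists but not H2087 were present in 3832, replicate 2 alone in 34610 and replicate 1 alone in 1302. The regions of H2087 alone and those of both H3122 lists without H2087 are the line-specific regions of each line.

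FOXA1 peaks, which were mapped in H3122 only, were at most H3122-specific regions and at few regions of H2087 alone. Over all regions 43.5% held a FOXA1 peak. The share was 65.3% (63.8 to 66.8) in the regions of both H3122 lists without H2087, 57.9% (55.8 to 59.9) in those of all 3 lists and 40.8% (39.6 to 41.9) in those of H2087 and replicate 2. It was 46.9% in regions of replicate 2 alone, 8.26% (7.49 to 9.09) in regions of H2087 alone and 4.99% (3.94 to 6.31) in regions of replicate 1 alone. The H3122-specific regions thus held FOXA1 more often than the regions both lines shared. That difference was present at like scores: in the highest quintile of replicate 2 scores, FOXA1 was at 79.99% of H3122-specific regions, 81.3% of replicate 2 regions without either other list, 69.4% of regions of all 3 lists and 68.2% of those of H2087 and replicate 2. In the lowest quintile the order differed, with 29.2% for replicate 2 alone, 19.7% for H3122-specific regions and 18.2% and 20.1% for the shared classes. In regions of H2087 alone, the FOXA1 share was 7.70% at the lowest quintile of H2087 scores and 9.40% at the highest, which is within their counting intervals. These shares depended on which H3122 lists were used. With replicate 1 as the only H3122 list, the order turned, with FOXA1 at 48.9% of regions of H3122 alone and 55.3% of shared regions, and 27.4% of regions of H2087 alone held it. With replicate 2 as the only list, 48.8% of H3122-only and 44.7% of shared regions held it. FOXA1 was not mapped in H2087, so its presence at H2087-specific sites in that line was not measured here.

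The NKX2-1 list of H1819, a separate amplified line, marked the shared regions instead. Over all regions 13.6% held an H1819 peak. The share was 44.9% (42.8 to 47.0) in regions of all 3 lists, 24.7% in those of H2087 and replicate 2, and 24.0% (22.7 to 25.4) in H3122-specific regions. It was 9.73% in regions of replicate 2 alone, 5.67% (5.04 to 6.38) in those of H2087 alone and 1.38% in those of replicate 1 alone. At the highest quintile of replicate 2 scores, 48.5% of the regions of all 3 lists and 30.6% of the H3122-specific regions held an H1819 peak. The strongest quintile of the H2087-alone regions held one in 9.88% of cases (7.37 to 13.13). With replicate 2 as the only H3122 list, the H3122-only share was 11.15%, and with replicate 1 as the only list the share at H2087 alone was 16.96%. Regions of H2087 alone, defined with both H3122 lists, thus seldom held a peak of the H1819 list. Their share was 3.75% at the lowest quintile of H2087 scores, below that at the highest. The depth of the H1819 list is not known and its threshold is seen only from its lowest score, so absent binding and absent detection cannot be told apart there.

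**Figure D2:**
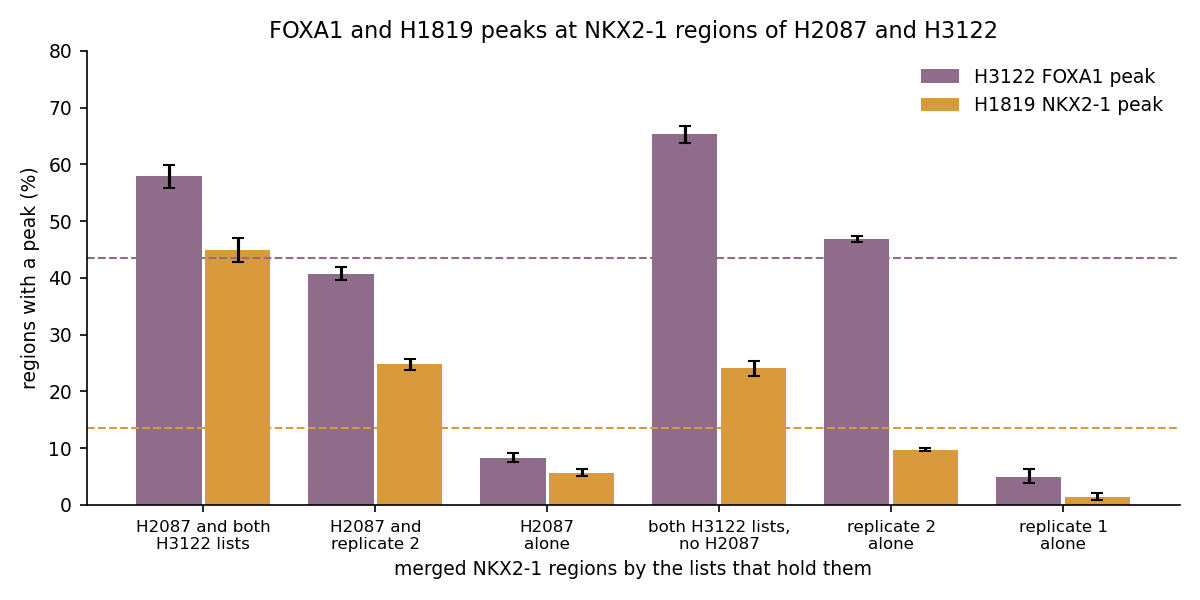
Share of merged NKX2-1 regions (%, vertical) that hold an H3122 FOXA1 peak (purple) or an H1819 NKX2-1 peak (orange), by the lists present in the region (horizontal), with 95% Wilson intervals; dashed lines give the share over all regions, 43.5% and 13.6%. FOXA1 is at 65.3% of H3122-specific regions and 8.26% of regions of H2087 alone.

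Among the 10 regions of all 3 lists with the best mean rank of score, the first was in 5q31.3 (hg18, chromosome 5, 140362663 to 140364959), the band of SPRY4, an inhibitor of receptor tyrosine kinase signalling. It scored 523 in replicate 1, 3100 in replicate 2 and 3137 in H2087. The next were in 6p25.3 (chromosome 6, 1292953 to 1294935), the band of the forkhead factor gene FOXQ1, with 1038, 3100 and 3100, and in 10p15.3 (chromosome 10, 1005631 to 1007590), with 854, 3100 and 3100. Those in 15q23, 13q32.1, 15q26.1, 18q22.3, 1q24.3, 9q22.32 and 1q23.1 completed the set, with replicate 1 scores of 355 to 827. FOXA1 had a peak at 9 of the 10; the exception was the region in 1q23.1 (chromosome 1, 155161887 to 155163184), which scored 665, 3100 and 3100. H1819 had a peak at 8 of the 10, all but those in 13q32.1 and 18q22.3. Among regions of all 3 lists in the highest quintile of replicate 2 scores, 69.4% held FOXA1 and 48.5% held H1819. The genome annotation of the files' build was not used here, so a band name says which chromosome segment holds a region and not which gene it regulates.

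The 10 strongest regions of H2087 alone had scores of 2693 to 3100 and widths of 1340 to 2421 bp, with no peak in either H3122 list. They included 10q25.2 (chromosome 10, 112260916 to 112263336), 12p13.33 (chromosome 12, 892809 to 895155), 5q35.2 (chromosome 5, 174605078 to 174606916) and 17p13.2 (chromosome 17, 4079429 to 4080844), each at 3100. Regions in 9q22.33, 4p16.1, 5q35.1, 16p13.2, 16p12.3 and 1q25.3 followed. None of the 10 held a FOXA1 peak, and 1, that in 17p13.2, held an H1819 peak. Of all 4603 regions of H2087 alone, 8.26% held a FOXA1 peak and 5.67% an H1819 peak, from which such counts cannot be told. Of the 10, 8 lay within 100 kb of an H3122 peak, where only 3.80% of all H2087 peaks without an H3122 partner were farther away. The median distance over all 10 was 19.3 kb, and the nearest pair, in 16p12.3, were 1.50 kb apart. The region in 5q35.2 was the most isolated, 273 kb from the closest H3122 peak.

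The 10 best-ranked regions of both H3122 lists without H2087 stood farther from the other line. The first, in 3q13.12 (chromosome 3, 109484201 to 109485131), scored 1246 in replicate 1, the highest score of that list, and 3100 in replicate 2, and the nearest H2087 peak was 149 kb away. Those in 13q34 (chromosome 13, 112493790 to 112494848), 16q22.1 (chromosome 16, 66825308 to 66826559) and 4p15.2 (chromosome 4, 25057016 to 25057926) scored 877, 767 and 706 in replicate 1 and 3100 in replicate 2. The one in 16q22.1, the band of CDH1 (E-cadherin), was the closest to an H2087 peak at 2.27 kb. The set also held regions in 2p14, 12q23.2, 3q24, 20p12.1, 14q13.1 and 13q12.2. All 10 held a FOXA1 peak and 8 held an H1819 peak. Among H3122-specific regions in the highest quintile of replicate 2 scores, 79.99% held FOXA1 and 30.6% held H1819. Their median distance to an H2087 peak was 231 kb, and 3 of the 10 had one within 100 kb.

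The same asymmetry in spacing was present among all peaks without a partner in the other line. Of the 4603 H2087 peaks without an H3122 partner, 51.3% were within 10 kb of an H3122 peak and 3.80% were more than 100 kb from one. Of the 38443 replicate 2 peaks without an H2087 partner, 14.03% were within 10 kb of an H2087 peak and 48.5% were more than 100 kb from one. For the 3833 of these that were also in replicate 1, the shares were 13.4% and 48.8%. Replicate 1 peaks without an H2087 partner gave 14.2% and 47.4%. Replicate 2 is much the longer list, so a short distance to it is easier to meet. Within H3122, the replicate 1 peaks that replicate 2 lacked were within 10 kb of it in 33.4% of cases.

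H2087 was denser than both H3122 lists on chromosomes 10, 16, 17 and 19 and sparser on chromosomes 6 and 13. Relative density, used from here on, is the number of peaks per megabase divided by the same list's mean over the genome. On chromosome 19 it was 1.55 in replicate 1 (240 peaks), 1.27 in replicate 2 (1262) and 2.28 in H2087 (683), which is 1.80 times replicate 2 (1.64 to 1.98) and 1.47 times replicate 1 (1.27 to 1.71). On chromosome 17 the relative densities were 1.65, 1.27 and 2.004. On chromosome 16 they were 0.94, 0.77 and 1.28, and on chromosome 10, 0.85, 0.96 and 1.22. Chromosomes 10, 16, 17 and 19 were the 4 on which H2087 was above both H3122 lists by more than counting error. It was below both on chromosomes 6 and 13. Chromosome 13 had 257, 1659 and 293 peaks, or relative densities of 0.93, 0.93 and 0.55, and H2087 was at 0.588 times replicate 2 (0.519 to 0.666) and 0.590 times replicate 1 (0.499 to 0.697).

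Much of the spread between chromosomes was also present within H3122. The ratio of replicate 1 to replicate 2 went from 0.548 on chromosome X to 1.63 on chromosome 22, while that of H2087 to replicate 2 went from 0.588 to 1.80. On 18 of 23 chromosomes H2087 lay on the same side of both H3122 lists. On chromosome 22 it was close to replicate 1 (1.30 and 1.29) although replicate 2 was at 0.79. Across the 23 chromosomes, Pearson's r between relative densities was 0.87 for H2087 and replicate 1, 0.63 for H2087 and replicate 2 and 0.78 for the H3122 lists; these values describe the 23 points, which share chromosome lengths and gene content, and H2087 is compared with each list in turn. The share of replicate 2 peaks found in H2087 was lowest on chromosome 13 (12.1%) and highest on chromosome 19 (35.3%). The shared share of H2087 peaks varied less, from 59.8% on chromosome 20 to 73.2% on chromosome 4, and was also low on chromosomes 16 (60.5%) and 10 (60.6%). On chromosomes 10 and 16 the higher H2087 density thus went with a lower shared share, while on chromosome 19 that share was 69.3%. On chromosome Y the lists held 2, 0 and 3 peaks.

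**Figure D3:**
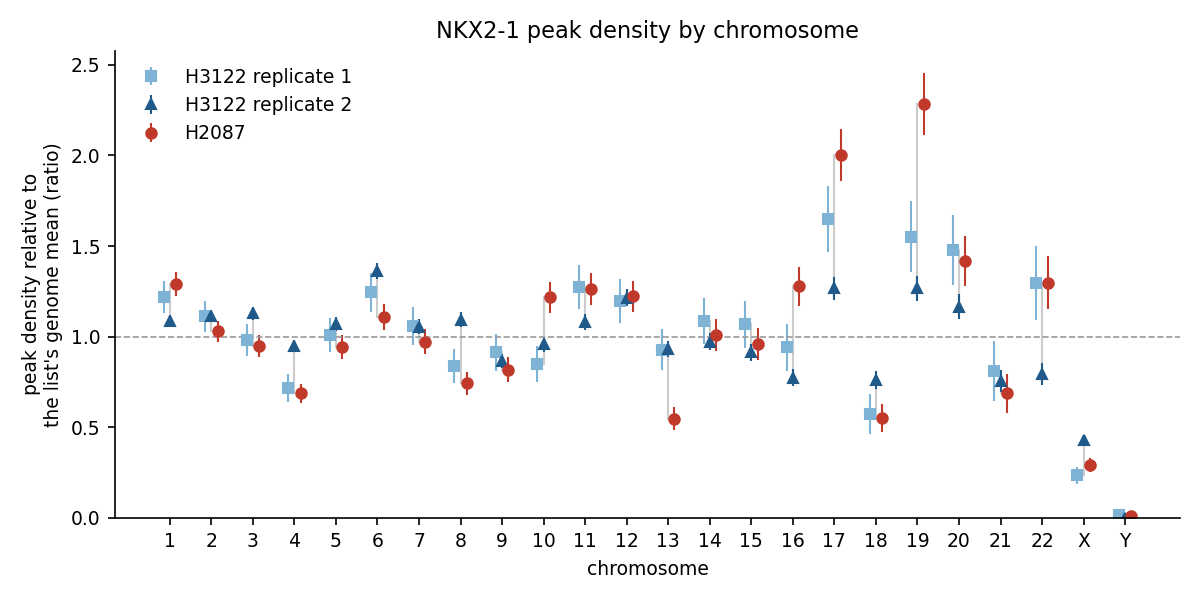
Relative peak density (vertical, ratio to the list's genome mean) of the 3 NKX2-1 lists on each chromosome; light blue squares are H3122 replicate 1, dark blue triangles replicate 2 and red circles H2087, and vertical bars are 95% counting intervals. H2087 stands at 2.28 on chromosome 19 and at 0.55 on chromosome 13.

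Giemsa staining of chromosome bands, in which dark bands are gene-poor and late-replicating, also separated the classes. The ratio of density between unstained and darkest bands was 4.61 (4.03 to 5.28) for regions of H2087 alone, 3.31 for those of H2087 and replicate 2 and 3.29 for those of all 3 lists. It was 1.41 (1.28 to 1.56) for H3122-specific regions and 1.15 for regions of replicate 2 alone. Replicate 1 alone stood with the H2087 classes at 3.71 (2.94 to 4.69). The darkest bands held 496 H3122-specific regions and 229 regions of H2087 alone.

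H2087 peaks were more clustered than those of replicate 1 as deposited and at equal list length. Compared with replicate 2 they were less clustered as deposited and more clustered at equal length. With every peak, 47.8% of H2087 peaks, 54.4% of replicate 2 peaks and 17.99% of replicate 1 peaks had another peak of the same list within 10 kb. With the 7469 best-scoring peaks of each list these shares were 32.5% (31.5 to 33.6), 19.2% (18.4 to 20.1) and 17.99% (17.1 to 18.9). With replicate 2 limited to as many peaks as H2087 it was 29.5% against 47.8%. Part of the H2087 clustering was of very close peaks: 11.8% of the gaps between its successive peaks were under 1 kb, against 9.31% in replicate 2 and 2.66% in replicate 1. After peaks under 1 kb apart were joined, the equal-length shares were 24.4%, 16.4% and 13.6%.

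Clusters were defined as runs of 3 or more peaks with gaps of at most 10 kb. H2087 had 851, replicate 2 had 3647 and replicate 1 had 74, and the largest held 14, 30 and 5 peaks. In H2087 the share of peaks with an H3122 partner was 72.3% for single peaks, 65.1% in pairs, 62.8% in runs of 3 or 4 and 58.4% (54.8 to 61.9) in runs of 5 or more. For replicate 2 peaks with an H2087 partner the order was the opposite, 18.9%, 19.9%, 21.4% and 22.5%. Of the 125 H2087 clusters with 5 or more peaks, 122 held at least 1 peak shared with H3122, and 12 were shared at every peak. Of the 761 replicate 2 clusters of that size, 450 held a peak shared with H2087. Over all peaks, 68.1% of H2087 and 20.01% of replicate 2 peaks were shared. A run of 5 or more peaks therefore often holds a shared one, so these cluster counts say little beyond those shares.

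**Figure D4:**
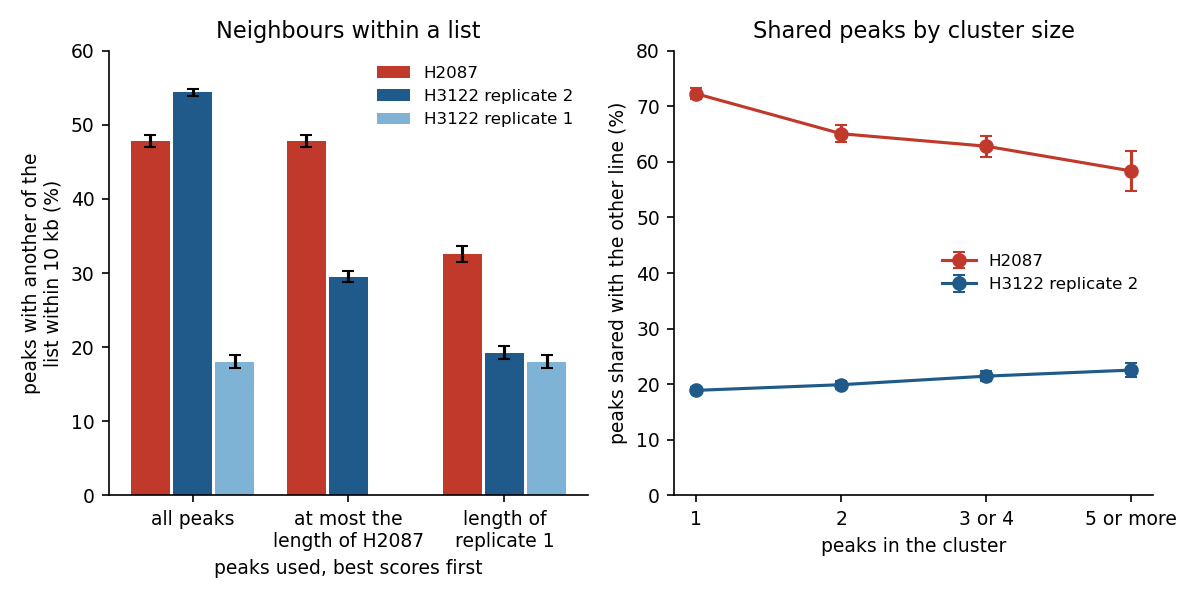
Left, share of peaks (%, vertical) with another peak of the same list within 10 kb, using all peaks, at most the number in H2087, or the 7469 best-scoring of each list; no bar is drawn for replicate 1 in the middle group. Right, share of peaks found in the other line by the number of peaks in the cluster, for H2087 (red) and H3122 replicate 2 (blue), with 95% Wilson intervals; the red line goes from 72.3% to 58.4%.

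The largest H2087 cluster was in 11q13.1, the band of MEN1 (menin, a scaffold of chromatin-modifying complexes), from 65412281 to 65442369 on chromosome 11. Its 14 peaks over 30.1 kb had 2 replicate 2 peaks, none of replicate 1, none of H1819 and none of FOXA1 among them. In the next 4 H2087 clusters by size, 3 had a majority of shared peaks. In 10q23.33 (chromosome 10, 95203894 to 95232613) 7 of 11 peaks had an H3122 partner, in 17q23.1 (chromosome 17, 55257664 to 55285969) 7 of 11, and in 11q23.3 (chromosome 11, 118279341 to 118306501) 7 of 10, while in a second run in 11q13.1 (chromosome 11, 64941930 to 64979697) 4 of 9 did. The largest H2087 cluster without any H3122 peak in its span was in 20q13.12, the band of HNF4A, a nuclear receptor of gut and liver epithelium (chromosome 20, 43874037 to 43899326). It held 6 peaks with a top score of 762, and neither FOXA1 nor H1819 had a peak there. The others of this kind, in 2p23.2, 15q26.1, 16p12.1 and 4q31.3, held 4 or 5 peaks.

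The largest replicate 2 cluster was in 6p22.3 (chromosome 6, 16777268 to 16879502), with 30 peaks over 102 kb. It also held 9 H2087, 2 replicate 1, 9 H1819 and 27 FOXA1 peaks. That in 7q32.3 (chromosome 7, 130214270 to 130261914) held 19 replicate 2, 8 H2087 and 13 FOXA1 peaks. Replicate 2 clusters that H2087 lacked were in 10q11.23 (chromosome 10, 51804320 to 51850404, 14 peaks), 13q14.11 (chromosome 13, 40454188 to 40513489, 13 peaks), 8q21.13 (11 peaks), 13q22.1 (chromosome 13, 72860159 to 72902293, 11 peaks) and 3q26.33 (chromosome 3, 183783947 to 183832996, 10 peaks). Those 5 also held 1 or 2 replicate 1 peaks and 7 to 13 FOXA1 peaks each. The top scores in 13q22.1 and 3q26.33 were 2419 and 1873.

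Windows of 1 Mb with a large excess of H2087 over replicate 2 included 65 to 66 Mb of chromosome 11, in 11q13.1. It held 41 H2087 peaks, 42 of replicate 2 and 9 of replicate 1, or relative densities of 8.75, 2.69 and 3.71. Of the 41 H2087 peaks, 20 had an H3122 partner. Others were in 19q13.32 (38 H2087, 47 replicate 2 and 14 replicate 1 peaks), 6p21.33 (34, 37 and 4) and 1q22 (34, 39 and 5). H2087 was above replicate 1 as well as replicate 2 in these 4, which are not all of the windows with a large excess. They were picked for a high H2087 density, so the comparison with replicate 1 is no separate support for an excess. In these 4 the FOXA1 relative density was 1.09 to 2.18.

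The largest deficit was at 124 to 125 Mb of chromosome 5, in 5q23.2, the band of ZNF608, with 6 H2087, 75 replicate 2 and 6 replicate 1 peaks. All 6 H2087 peaks were shared. The windows in 3q26.33, the band of the airway progenitor factor gene SOX2 (1 H2087, 58 replicate 2 and 6 replicate 1 peaks), 6q21 (1, 55 and 7), 4q31.23 (1, 53 and 5) and 13q22.1 (0, 49 and 7) came next. H2087 had no more peaks than replicate 1 in any of these 5 windows, although it is the longer list of the pair over the genome. The windows were picked for few H2087 peaks against many of replicate 2, so this is no separate support for a deficit. FOXA1 was dense in them, at 2.83 to 5.66 times its mean, and H1819 had 7 to 19 peaks in each. The 13q22.1 window held 58 FOXA1 and 19 H1819 peaks.

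Windows dense in replicate 2 were empty of H2087 more often than of the shorter replicate 1 list. Of 1062 windows with at least 20 replicate 2 peaks, 76 had no H2087 peak and 31 had no replicate 1 peak. Over all 3091 windows, 996 had no H2087 peak and 829 no replicate 1 peak. The 1062 were picked by a list of the same line as replicate 1, which favours replicate 1. Of the 76, 11 were on chromosome 13, which held 26 of the other 986. Chromosomes 2 and 8 had 10 and 8 of the 76, and their windows with an H2087 peak were not counted. The 76 held a median of 3 replicate 1, 22 replicate 2, 3 H1819 and 24 FOXA1 peaks, against 4, 27, 7 and 22 in the other 986. Among 535 windows with at least 10 H2087 peaks, replicate 1 had none in 14, and replicate 2, whose length makes an empty window unlikely, had 6 or more in each.

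Long stretches of the genome carried H3122 peaks and no H2087 peak. The one with most replicate 2 peaks ran from 79946679 to 94162649 on chromosome 13, in 13q31.1 to 13q32.1. These 14.2 Mb held 229 replicate 2, 26 replicate 1, 31 H1819 and 307 FOXA1 peaks, and the replicate 2 density of 16.1 peaks per Mb was close to the genome mean of 15.6. Others were in 8q23.2 to 8q23.3 (7.03 Mb with 129 replicate 2 and 12 replicate 1 peaks), 2p12 (7.18 Mb, 112 and 12), Xq26.3 to Xq28 (13.04 Mb, 104 and 12) and 3q12.3 to 3q13.11 (4.25 Mb, 101 and 11). H1819 had 9 to 31 peaks in each of these 5. They were picked from the data as the extremes. Reads, copy number and input signal of H2087 over them were not analysed here, so absent binding and absent detection cannot be told apart.

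Bands gave the finest unit that could be tied to gene names. Over 742 bands with a replicate 2 peak, H2087 had the higher relative density in 333 (44.9%), and the median ratio was 0.90. It was above both H3122 lists in 247 (33.3%) and below both in 303 (40.8%). For the 39 bands of 40 listed genes of lung identity and growth control, H2087 was above replicate 2 in 24, above both H3122 lists in 21 and below both in 13, with a median ratio of 1.24. The list was drawn up with earlier results of these data known, and each band holds many other genes. The listed bands were not matched to all bands for gene content or Giemsa staining. By staining, the H2087 classes and the replicate 2 regions differed above, so all bands are an unlike baseline. The groups below hold 1 to 8 bands each, so their counts are descriptions to be read against these shares of all bands. Counts of shared H2087 peaks in a band are to be read against the 68.1% shared over all H2087 peaks.

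Of the 8 bands of lung transcription factor genes, 5 were below both H3122 lists, 1 was above both and 2 were between, where 40.8% of all bands were below both. In 14q13.3, the band of NKX2-1 itself, replicate 1, replicate 2 and H2087 had 10, 50 and 11 peaks, or relative densities of 3.17, 2.47 and 1.81, and 9 of the 11 H2087 peaks were shared. In 14q21.1, the band of FOXA1, they had 6, 51 and 7 peaks. The widest gap was in 3q26.33, the SOX2 band, with 11, 95 and 5 peaks or 1.26, 1.69 and 0.30 times the mean. Next came 6p25.3, the FOXQ1 band, with 10, 38 and 4. The exception above both was 18q11.2, the band of GATA6, an endodermal zinc finger factor, with 17, 108 and 35 peaks, where relative densities of 1.17, 1.15 and 1.25 lay close together. The band of CEBPA, 19q13.11, had 7, 35 and 13 peaks and that of FOXA2, 20p11.21, had 16, 75 and 29, both between the H3122 lists in density. SOX9, a factor of distal lung progenitors, has its band in 17q24.3, with 11, 77 and 19 peaks.

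Surfactant and secretoglobin genes are the best known targets of NKX2-1. Of the 5 surfactant and lamellar body bands, 3 were above both H3122 lists and 2 between, where 33.3% of all bands were above both. In 2p11.2, the band of SFTPB (surfactant protein B), there were 12, 75 and 31 peaks, or 0.68, 0.66 and 0.91 times the mean, and 25 of the 31 H2087 peaks were shared. In 10q22.3, with the lectin genes SFTPA1 and SFTPD, there were 20, 86 and 39 peaks, and the H2087 density of 1.81 was near the 1.79 of replicate 1. In 19q13.33, with NAPSA (napsin A, which processes surfactant proteins), there were 21, 94 and 54 peaks at 2.28, 1.59 and 3.03 times the mean. In 16p13.3, with the lipid transporter gene ABCA3, there were 45, 145 and 86, at 2.95, 1.48 and 2.91 times the mean. In 8p21.3, with SFTPC (surfactant protein C), there were 6, 82 and 22 at 0.58, 1.22 and 1.09, so H2087 was below replicate 2. Both secretoglobin bands were above the H3122 lists: 11q12.3, with SCGB1A1, the club cell secretory protein gene, had 7, 46 and 28 peaks at 1.70, 1.73 and 3.51 times the mean, and 5q32, with SCGB3A2, had 11, 80 and 25 at 1.11, 1.25 and 1.30. With 6 to 12 replicate 1 peaks in several of these bands, counting error alone is large.

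Of the 5 receptor kinase bands, 4 were above both H3122 lists, where 33.3% of all bands were. The widest gap was in 12q13.2, the band of ERBB3, with 8, 36 and 27 peaks at 1.57, 1.10 and 2.74 times the mean, where 22 of the 27 H2087 peaks were shared. In 17q12, with ERBB2, there were 9, 88 and 52, in 7p11.2, with EGFR, 6, 38 and 16, and in 1p31.3, with ROR1, a receptor described as an NKX2-1 target, 25, 179 and 60. In 7q31.2, with MET, there were 11, 88 and 26 peaks, and the H2087 density of 1.98 lay between 1.62 and 2.01. The bands of feedback inhibitors of this signalling went both ways, 2 above and 3 below. In 1p36.23, with ERRFI1, a direct inhibitor of EGFR, there were 19, 88 and 45 peaks at 3.73, 2.69 and 4.57 times the mean, and in 5q31.3, with SPRY4, 27, 147 and 71. In 13q31.1, with SPRY2, there were 22, 164 and 8, in 12q21.33, with the ERK phosphatase gene DUSP6, 18, 149 and 18, and in 8p12, with DUSP4, 16, 148 and 17. Of the 18 H2087 peaks in the DUSP6 band, 17 were shared.

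Of the 4 junction gene bands, 3 were above both lists, where 33.3% of all bands were. In 16q22.1, with CDH1, there were 11, 94 and 64 peaks at 1.08, 1.43 and 3.25 times the mean. Of the 64, 24 were found in H2087 only, where 31.9% of all H2087 peaks were. In 3q22.3, with CLDN18, a claudin of lung and stomach, there were 5, 34 and 20, and in 5q13.2, with OCLN (occludin), 15, 88 and 43. The band of CLDN1, 3q28, was below both with 25, 145 and 23. Both gut bands were above: 20q13.12, with HNF4A, had 15, 98 and 62 peaks, of which 30 of the 62 were not shared, and 21q22.3, with TFF1, a trefoil peptide of gastric mucus, had 20, 119 and 49. The bands of MYBPH and HMGA2, genes linked to cell motility, 1q32.1 and 12q14.3, were above both with 36, 175 and 83 and with 5, 62 and 22 peaks. In 12p12.3, the band of LMO3, described as a transcriptional target of NKX2-1, there were 19, 132 and 27 peaks, below both lists at 1.54, 1.66 and 1.13 times the mean.

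Among the other listed bands, 11q13.1 had 43, 159 and 123 peaks, or 4.43, 2.55 and 6.56 times the mean, and 54 of its 123 H2087 peaks were not shared. In 7p21.1, with AHR, the aryl hydrocarbon receptor gene, there were 12, 160 and 19. In 5q23.2, with ZNF608, there were 22, 203 and 14, and every one of the 14 H2087 peaks was shared. In 12p13.1, with GPRC5A, a lung tumour suppressor gene, there were 11, 72 and 19. In the SPRY2, SOX2 and ZNF608 bands, the 3 with the lowest H2087 ratio to replicate 2 of the list, 7 of 8, 4 of 5 and 14 of 14 H2087 peaks were shared. In the MEN1 and ERBB3 bands, the 2 with the highest, 69 of 123 and 22 of 27 were. Over all H2087 peaks the shared share was 68.1%, and counts as small as 7 of 8 or 4 of 5 cannot be told from it.

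**Figure D5:**
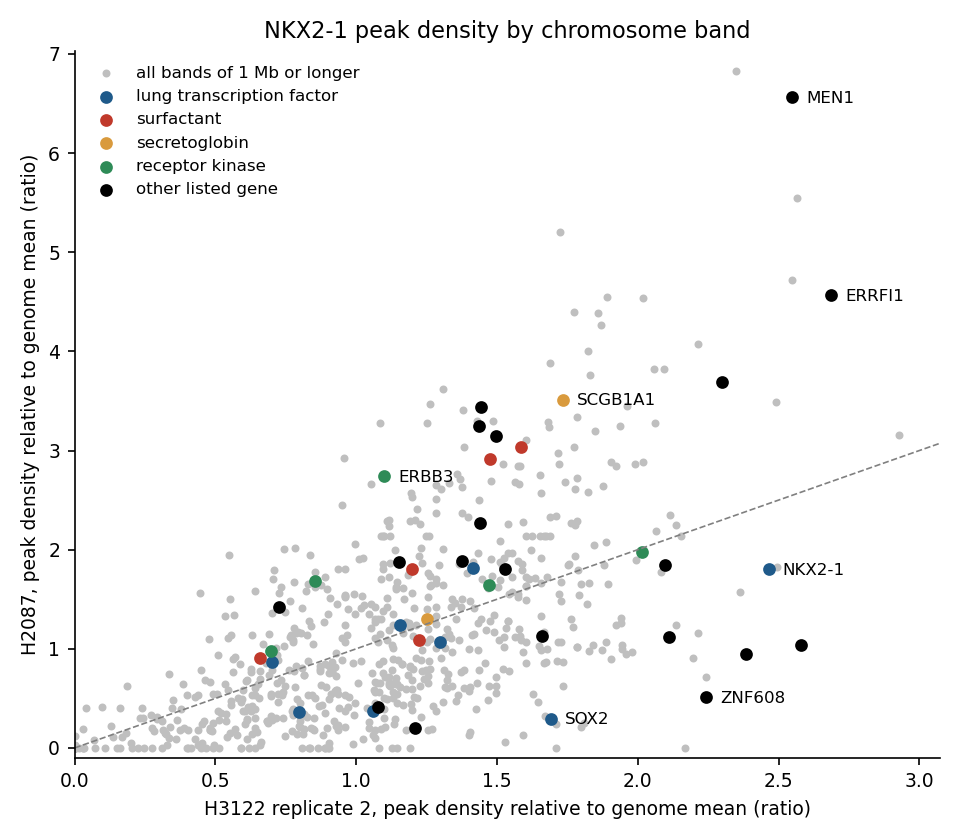
Relative peak density of H2087 (vertical) against H3122 replicate 2 (horizontal) in 755 chromosome bands of 1 Mb or longer, as ratios to each list's genome mean; the dashed line marks equal values, coloured points are bands of the listed genes by role, and a few are named. The SOX2 band lies at 1.69 and 0.30, and the MEN1 band at 2.55 and 6.56.

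Over all bands, those with at least 60 replicate 2 peaks and the lowest H2087 ratio were 13q22.1, 13q31.3 and 2p25.2. They held 71, 88 and 72 replicate 2 peaks, 10, 13 and 9 replicate 1 peaks, and no H2087 peak. FOXA1 had 84, 115 and 62 peaks in them and H1819 had 25, 11 and 7. At the other end, among bands with at least 20 H2087 peaks, the highest ratio to replicate 2 was in 1p36.21, with 8, 30 and 32 peaks and a ratio of 3.55. The bands 19q13.43 (4, 36 and 33 peaks), 15q15.3 (6, 22 and 20), 1q21.2 (6, 43 and 39) and 1q22 (8, 55 and 48) followed, at ratios of 2.91 to 3.05. In 1p36.21, 15 of the 32 H2087 peaks had no H3122 partner, and FOXA1 was at 0.46 times its mean.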

How the data were processed

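The 5 peak lists were used as deposited, 1 per precipitated library per the labels; the 4 input libraries were not analysed here. Per the submitters' processing notes, Bowtie aligned the reads to hg18 and MACS 1.4.0 called the peaks. The deposited score of each peak is the authors' value; its scale is not stated in the sources used here, and was read from its lowest values (50 in replicate 1, 60 in the others). Read this way, the lowest scores correspond to p of 1e-05 in replicate 1 and 1e-06 in the other lists. Beyond that, the calling settings of each list were not taken into account here. Neither depth nor the input used as control is given in the sources used here. Replicate 1 reached a weaker p than the other lists, and a longer or deeper list holds more weak peaks, which affects every share.

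Overlaps, widths, clusters, windows and bands were computed with Python 3.11.15, numpy 2.4.6, pandas 2.3.3 and scipy 1.17.1, and tested on simulated lists. Chromosome lengths came from GenomeInfoDb 1.38.1 and bands from circlize 0.4.16 in R 4.3.3. Regions named are the 10 with the best mean rank of score in each class, clusters the 5 with most peaks, windows the 5 with the largest difference, and bands those of a list of 40 genes; the stretches without an H2087 peak and the extreme bands were chosen after their values were seen. One of the named windows and one of the listed bands are not reported here. The members and lists were chosen with earlier results of these data known. Peaks on unplaced sequence were left out. Alternatives changed the overlap rule, score threshold, list length, cluster gap, window size and H3122 list.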

Additional observations from a re-analysis of the deposited data

Results flagged for a closer look

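Peaks on unplaced sequence of the assembly belong to no comparison above, and more than 3, the upper limit for a count of 0, were found in replicate 2 (10) and in H2087 (4). Replicate 1 had none. Of these, 4 of the replicate 2 peaks and 2 of the H2087 peaks were on unplaced sequence of chromosome 17.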

How the results depend on the processing

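The outcomes above were recomputed under 97 alternatives, 12 of them chosen after seeing the data. Of these, 27 stayed within counting error (or within 1.5 times, for counts), 67 moved and 3 changed sign. Some of the 27 could not change, because the setting did not touch the lists measured, as with the replicate 2 share under a replicate 1 threshold. The sign changed for clustering, H2087 minus replicate 2: -6.59 percentage points as deposited, 13.28 at equal list length, 7.97 at equal length with peaks within 1 kb joined, and 18.3 with replicate 2 limited to the length of H2087. It was -1.37 and -10.9 with gaps of 5 and 20 kb and -12.2 with joined peaks. H2087 minus replicate 1 stayed positive, at 14.5, 26.2, 33.5, 19.997 and 10.8 points under equal length, the gaps of 5 and 20 kb, joining, and joining at equal length, from 29.8.

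The share of H2087 peaks in H3122 was 64.7% at scores of at least 100, 65.5% by midpoint, 66.8% with an overlap of 50% of the shorter peak and 35.7% at equal length. Without each H3122 list in turn it was 15.1% to 67.7%, the lower value without replicate 2. Of replicate 2 peaks, 18.2% by midpoint and 28.5% at equal length were in H2087; of replicate 1 peaks, 36.6%, 31.6% and 22.5% were at scores of at least 100, at least 60 and at equal length. At scores of at least 100 and at equal length, 645 and 1100 regions held all lists and 1077 and 2258 were H3122-specific. Without each H3122 list in turn, 4664 to 12254 regions were of H2087 alone, 2172 to 9343 held all lists used, and 5237 to 38443 were of the H3122 list alone.

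By midpoint, FOXA1 shares were 6.45% (H2087 alone), 51.4% (all lists) and 62.4% (H3122-specific), and H1819 shares 4.78%, 37.3% and 21.6%. Without each H3122 list in turn, FOXA1 was at 8.19% to 27.4%, 44.7% to 55.3% and 48.8% to 48.9%, and H1819 at 5.85% to 16.96%, 29.4% to 43.6% and 11.15% to 18.2%. The median width of shared peaks exceeded that of the others by 148 bp in H2087 and 112 bp in replicate 2 at equal length, by 143 bp in replicate 2 by midpoint, and by 189 to 266 bp and 44 to 159 bp without each list.

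At equal length the H2087 ratio to replicate 2 was 0.467 on chromosome 13 and 2.70 on chromosome 19; without replicate 2 it was 0.590 and 1.47. The largest window excess and deficit were 9.90 and -5.77 at equal length and 10.2 and -5.85 in windows of 500 kb. No paired analysis was possible because H2087 has 1 library and no test was run. The unknown depth limits what a missing peak can show.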
